A study of Mus musculus with 22 samples.

Results

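The 10 genes described here encode the machinery by which a cell shows peptides on MHC class I molecules, and they were found by symbol (H2-K1, H2-D1, B2m, Tap1, Tap2, Tapbp, Psmb8, Psmb9, Psmb10 and Nlrc5) among 16266 gene symbols measured in every RNA library of the series. All 10 were present in the 4 libraries, and 8 passed the filter on low values, at least 0.5 RPKM in at least 2 libraries, that 11147 genes passed. RPKM is a read count scaled by the authors to transcript length (kilobases) and to the library's mapped reads (in M, mega). The cells were primary fibroblasts from the bodies of C57BL/6 mouse embryos of day 13.5, at passage 3 to 4. KO cells (Lsh-/-) are labelled as lacking Lsh, a chromatin remodeller of the SNF2 family encoded by Hells and needed for normal DNA methylation, and WT cells (Lsh+/+) carry the gene. Each genotype had 2 RNA libraries, named KO1, KO2, WT1 and WT2 by genotype and replicate number, and the labels name no other treatment. The labels speak of a biological replica but do not state how many embryos stand behind a culture. P-values therefore refer to the spread between these libraries, which limma estimates in part from a variance shared across genes. The other samples of the series, ChIP and input libraries, are not analysed here.

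MHC class I molecules consist of a polymorphic heavy chain and the invariant light chain beta-2 microglobulin, and nearly every nucleated cell can carry them. The proteasome cuts proteins into peptides, the TAP transporter carries these into the endoplasmic reticulum, and tapasin holds an empty class I molecule at the transporter until a peptide is bound. Interferon gamma raises the whole set in fibroblasts, in part by swapping the catalytic subunits of the proteasome for inducible ones, and NLRC5 is the transactivator that acts on class I promoters.

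The promoters of 4 members are shown with their matches to elements through which class I genes are known to be controlled. Not every window holds every element. The sequences are from RefSeq on the build GRCm38.p6, run from 250 bases before to 50 after an annotated start, and are written in the direction of the gene. They are not on the build of the expression files, mm9. Capitals mark matches, on either strand, to GGGATTCCC (the core of enhancer A, a site of the NF-kB type), GAAANNGAA and GAANNGAAA (forms A and B of an interferon response element), CCAAT (the box of that name, a site of NF-Y) and TGACG (the core of a CRE, as in the X box of class I promoters). The letters searched were chosen with the sequences in view.
H2-K1 (chr17:34000298-34000597, minus strand): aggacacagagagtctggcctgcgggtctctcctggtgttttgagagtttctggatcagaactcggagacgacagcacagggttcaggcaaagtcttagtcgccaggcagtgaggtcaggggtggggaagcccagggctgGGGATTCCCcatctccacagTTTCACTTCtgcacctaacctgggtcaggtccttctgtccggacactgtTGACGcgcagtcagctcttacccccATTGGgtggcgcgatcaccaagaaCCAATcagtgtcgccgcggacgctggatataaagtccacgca
H2-D1 (chr17:35262844-35263143, plus strand): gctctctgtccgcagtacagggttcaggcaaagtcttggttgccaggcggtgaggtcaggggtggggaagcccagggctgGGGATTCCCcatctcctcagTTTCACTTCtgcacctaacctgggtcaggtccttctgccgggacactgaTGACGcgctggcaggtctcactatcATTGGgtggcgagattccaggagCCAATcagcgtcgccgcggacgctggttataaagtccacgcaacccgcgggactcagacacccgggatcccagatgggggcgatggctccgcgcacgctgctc
B2m (chr2:122147437-122147736, plus strand): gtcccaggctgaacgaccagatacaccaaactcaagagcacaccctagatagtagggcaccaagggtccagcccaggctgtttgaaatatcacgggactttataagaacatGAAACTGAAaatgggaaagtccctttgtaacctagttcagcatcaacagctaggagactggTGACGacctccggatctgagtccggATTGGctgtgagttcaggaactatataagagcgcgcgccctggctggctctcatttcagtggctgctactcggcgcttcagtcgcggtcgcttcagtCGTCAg
Tap1 (chr17:34187306-34187605, plus strand): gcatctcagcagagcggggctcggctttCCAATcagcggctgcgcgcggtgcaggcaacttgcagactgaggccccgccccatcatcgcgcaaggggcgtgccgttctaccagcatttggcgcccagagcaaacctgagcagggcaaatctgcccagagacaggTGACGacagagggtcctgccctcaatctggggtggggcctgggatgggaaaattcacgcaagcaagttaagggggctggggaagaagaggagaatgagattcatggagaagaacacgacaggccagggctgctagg

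The windows of H2-K1 and H2-D1 shared 214 of 239 aligned bases (89.5%). Both had enhancer A followed by form B of the interferon element, the CRE core and 2 CCAAT boxes in the same order. Enhancer A as spelled here occurred in 116 of 32851 promoter windows (0.353%), form B in 7.52%, the CCAAT box in 37.4% and the CRE core in 20.8%. B2m had no enhancer A match but held form A of the interferon element, which occurred in 8.56% of windows. Tap1 matched neither enhancer A nor either form of the interferon element. Tap1 and Psmb9 lie head to head, 225 bases apart in the files' coordinates, and 275 bases of their windows were the same stretch read in opposite directions. Of the 8 members with an entry, 2 had enhancer A, 6 a CCAAT box and 5 a CRE core. Form A of the interferon element was in 1 of them and form B in 2. No match overlapped another (0 overlaps). Tap2 and Nlrc5 had no entry. A match says only that these letters are in the window.

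**Figure D1:**
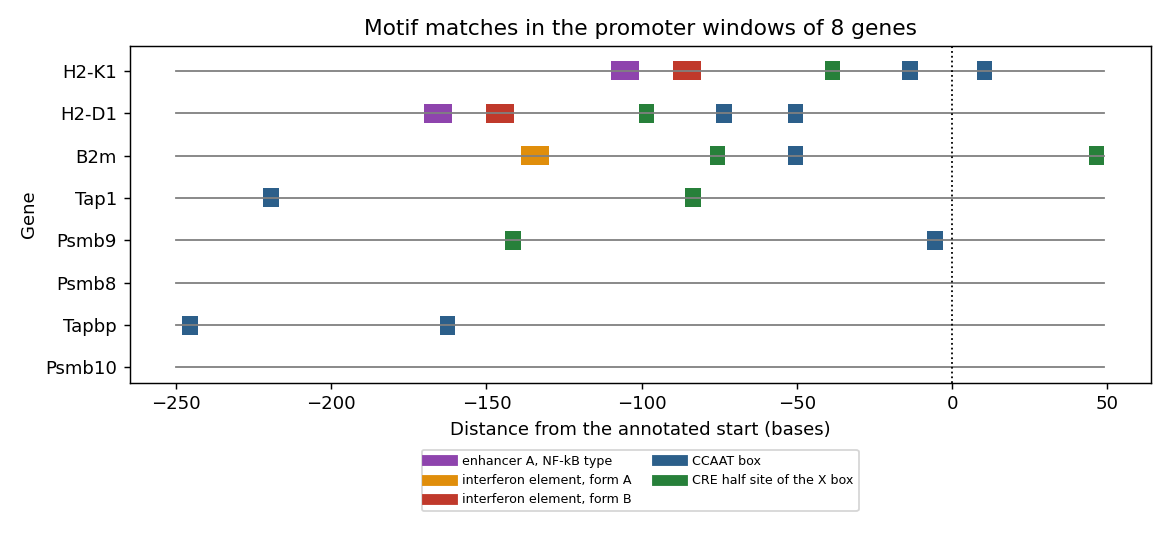
Matches to 5 short motifs, as coloured bars, in the promoter windows of 8 members, with the distance from the annotated start in bases on the x axis and each gene on its own line. H2-K1 and H2-D1 carry the same 5 matches in the same order, and Psmb8 and Psmb10 carry none.

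The libraries held 122.5 and 136.1 M (mega) mapped reads in KO1 and KO2 and 132.2 and 176.6 in WT1 and WT2, as read from the step of 1 read in single-exon loci, so that 1 RPKM stood for 122.5 to 176.6 reads per kilobase. Hells was at 0.430 and 0.550 RPKM in KO1 and KO2, against 0.865 and 1.06 RPKM in WT1 and WT2, a log2 difference of -0.56 (SE 0.34) whose limma adjusted p was 1.00, or 0.200 with a block for replicate number. Hells reads thus remained in both KO libraries, and the RNA alone does not settle the genotype labels. All 12 fibroblast markers checked were present, with Col1a1, a collagen chain, between 291 and 517 RPKM. Ptprc, the pan-leukocyte marker CD45, did not exceed 0.423 RPKM, but some other macrophage and blood markers were higher. Lyz2, a lysozyme gene, was at 3.61 and 28.0 RPKM in KO1 and KO2, against 31.1 and 42.9 RPKM in WT1 and WT2. Transcript rows numbered 26886 in the replicate 1 libraries and 21136 in the replicate 2 libraries, so the deposited tables differ by replicate number, and KO minus WT is therefore also given within each number. Gapdh was listed between 0 and 0.298 RPKM although Actb reached 1228 or more, so a low or zero value cannot be read as silence. The class I heavy chain genes resemble each other closely, and how reads shared between such copies were counted is not given in the sources used here, which leaves H2-K1 and H2-D1 uncertain.

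The light chain stood far above every other part of the machinery. B2m (chromosome 2, 121973423 to 121978819 on mm9) was at 196 and 238 RPKM in KO1 and KO2, against 171 and 215 RPKM in WT1 and WT2, and ranked between 62 and 120 among all genes in the 4 libraries. The next members by median over the 4 libraries were Tapbp at 19.9 RPKM, H2-D1 at 15.6 and H2-K1 at 7.53. The peptide transporter genes followed, with Tap1 at 2.37 RPKM and Tap2 at 2.16. The inducible proteasome subunits Psmb8 and Psmb10 had medians of 0.590 and 0.487 RPKM, and Nlrc5 and Psmb9 stood last at 0.111 and 0.0826. The ranges of Tapbp and H2-D1, H2-D1 and H2-K1, Tap1 and Tap2, Psmb8 and Psmb10, and Nlrc5 and Psmb9 overlapped, so neighbours within these pairs did not differ beyond their spread. The other steps of the order held in each of the 4 libraries. H2-D1 exceeded H2-K1 within each library, although their ranges overlapped across libraries.

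**Figure D2:**
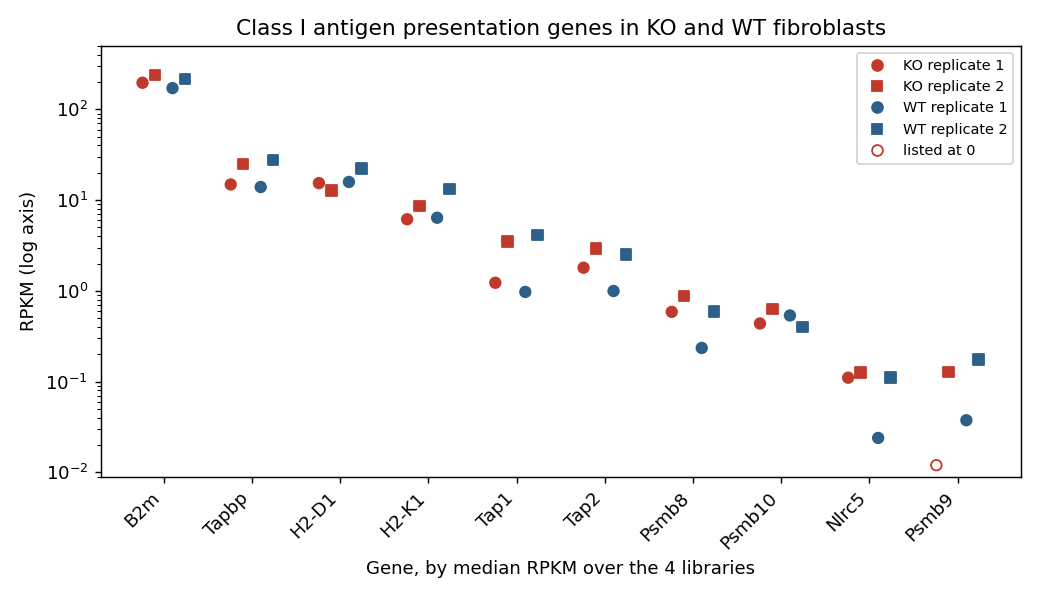
RPKM (log axis) of the 10 genes in each library, with KO in red left of WT in blue, circles for replicate 1 and squares for replicate 2, and an open symbol where a value is listed at 0. B2m lies above 171 RPKM in every library, and Nlrc5 and Psmb9 lie below 0.2 RPKM.

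KO was set against WT to see whether the class I transcripts differ between cells labelled Lsh-/- and Lsh+/+. Limma was run on log2(RPKM + 0.5), a scale that understates changes of low genes, once with genotype alone and once blocked on the replicate number (the blocked fit). No member passed an adjusted p of 0.05 in either fit: 0 of 8 with genotype alone, where 0% of the 11147 genes did (0.368% had an unadjusted p under 0.05), and 0 of 8 in the blocked fit, where 0.673% did (0.377% raised and 0.296% lowered). In the blocked fit 1 member had an unadjusted p under 0.05, against 9.1% of all genes. Within both replicate numbers, 3 of the 8 tested members were higher in KO (B2m, Tap2 and Psmb8), against 22.5% of all tested genes, and 2 were lower (H2-K1 and H2-D1), against 31.4%. Tap1, Tapbp and Psmb10 lay on opposite sides in the 2 replicate numbers. The median log2 difference of the 8 was 0.14 for replicate 1 and 0.0023 for replicate 2, beside -0.069 and 0.018 over all tested genes. In these 2 fits 2 and 1 residual degrees of freedom remain per gene, so a missed threshold does not show that a gene did not differ. The blocked fit adds 9.70 prior degrees of freedom from the variance shared across genes. Its p-values thus rest mostly on that shared variance, after the difference between replicate numbers is removed.

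Both heavy chain genes were lower in KO, by little for replicate 1 and by more for replicate 2. Their replicate 1 log2 differences, -0.0420 for H2-D1 and -0.0496 for H2-K1, were not below the -0.069 median of all tested genes. The lower heavy chain values in KO thus rested on replicate 2. H2-D1 (chromosome 17, 35400039 to 35404443), which encodes the D heavy chain, was at 15.4 and 12.7 RPKM in KO1 and KO2, against 15.9 and 22.2 RPKM in WT1 and WT2. Both KO libraries lay below both WT libraries, as they did for 7.32% of the genes tested (6.1% had both above, and 0 members did), but KO1 and WT1 were close and the gap came mainly from replicate 2. The ratio of KO to WT was 0.970 for replicate 1 and 0.572 for replicate 2. The log2 difference was -0.41 (SE 0.28, 2 libraries per genotype) with a limma adjusted p of 1.00, while the blocked fit gave an SE of 0.20 and an adjusted p of 0.608.

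H2-K1 (chromosome 17, 34132957 to 34137279), the K heavy chain gene, was at 6.16 and 8.66 RPKM in KO1 and KO2, against 6.39 and 13.2 RPKM in WT1 and WT2. Here the groups overlapped, because both replicate 2 libraries were above their replicate 1 counterparts. KO stood at 0.964 of WT for replicate 1 and at 0.657 for replicate 2. The log2 difference was -0.31 (SE 0.43), and limma's adjusted p was 1.00 with genotype alone and 0.720 in the blocked fit. Without WT2 the difference turned to 0.18. H2-K1 stood at 40.0% and 68.2% of H2-D1 in KO1 and KO2 and at 40.3% and 59.3% in WT1 and WT2, so the balance of the heavy chains followed the replicate number more than the genotype.

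B2m went the other way, with 1.15 times the WT level in KO for replicate 1 and 1.11 times for replicate 2. Its log2 difference of 0.17 (SE 0.27) missed the threshold with a limma adjusted p of 1.00, and the blocked fit gave 0.850 (SE 0.15). It was 0.00646 without WT1 and 0.0313 without KO2. The summed level of H2-K1 and H2-D1 came to 10.98% and 8.97% of B2m in KO1 and KO2, against 12.99% and 16.4% in WT1 and WT2. Each KO library lay below each WT library in this ratio, which a linear rescaling of the libraries leaves as it is. The ratio was formed after its values were seen. An exact permutation test over the 4 libraries, two-sided, gave p = 0.333, the smallest that 2 libraries against 2 can give.

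Among the peptide loading members, Tap2 differed most. Tap2 (chromosome 17, 34341424 to 34353267), one chain of the peptide transporter, was at 1.80 and 2.93 RPKM in KO1 and KO2, against 0.997 and 2.52 RPKM in WT1 and WT2. It was higher in KO within both numbers, 1.81 times for replicate 1 and 1.16 times for replicate 2, but the groups overlapped. The log2 difference was 0.40 (SE 0.49, limma adjusted p 1.00), and the blocked fit gave an adjusted p of 0.594 (SE 0.19). Without WT1 the difference turned to -0.106.

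Tap1 (chromosome 17, 34324501 to 34334171), the other chain of the transporter, was at 1.23 and 3.51 RPKM in KO1 and KO2, against 0.974 and 4.12 RPKM in WT1 and WT2. Its groups overlapped fully and its log2 difference was 0.01 (SE 0.75, limma adjusted p 1.00), with a sign that turned when KO2 or WT1 was left out. The gene has a pair of transcript rows, and the share given to NM_001161730 was 47.3% and 68.9% in KO1 and KO2, against 35.0% and 45.6% in WT1 and WT2. That share was higher in both KO libraries than in either WT library, but such rows overlap and their split is an estimate made upstream whose error is not given. Tapbp (chromosome 17, 34056423 to 34066236), which encodes tapasin, was at 14.9 and 25.0 RPKM in KO1 and KO2, against 13.9 and 27.6 RPKM in WT1 and WT2, a log2 difference of -0.03 (SE 0.46) that turned positive under 2 other scalings. Its rows kept a nearly fixed split, with NM_009318 at 51.2% in both KO libraries and at 51.2% and 51.5% in WT1 and WT2.

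**Figure D3:**
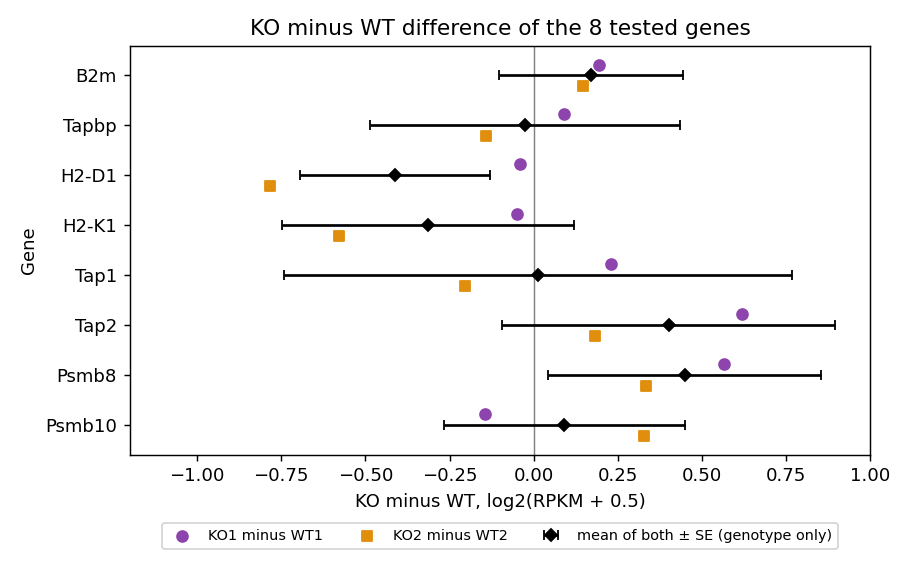
KO minus WT on the log2(RPKM + 0.5) scale for the 8 tested genes, with purple circles for replicate 1, orange squares for replicate 2 and black diamonds for the mean of both with its SE from limma with genotype only (2 libraries per genotype). H2-D1 and H2-K1 lie left of 0 and B2m, Tap2 and Psmb8 right of it in both replicate numbers. For replicate 1 both heavy chain values lie above the median of all tested genes, -0.069.

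Of the inducible proteasome subunits, Psmb8 was the member with the smallest p. Psmb8 (chromosome 17, 34335140 to 34338400), also called LMP7, was at 0.588 and 0.877 RPKM in KO1 and KO2, against 0.235 and 0.593 RPKM in WT1 and WT2. These levels stand for 72.0 and 119 reads per kilobase in the KO libraries and 31.1 and 105 in the WT libraries. KO was 2.50 times WT for replicate 1 and 1.48 times for replicate 2, while KO1 lay just below WT2. The log2 difference was 0.45 (SE 0.41, limma adjusted p 1.00), and the blocked fit gave an SE of 0.16, an unadjusted p of 0.0177 and an adjusted p of 0.364.

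Psmb10 (chromosome 8, 108459628 to 108462293), or MECL-1, was at 0.437 and 0.630 RPKM in KO1 and KO2, against 0.536 and 0.401 RPKM in WT1 and WT2. The libraries interleaved, and the log2 difference was 0.09 (SE 0.36, limma adjusted p 1.00). Psmb9 (chromosome 17, 34319044 to 34324276), or LMP2, was too low to be tested: it was listed at 0 in KO1 and was at 0.128 RPKM in KO2, against 0.0376 and 0.176 RPKM in WT1 and WT2. The WT1 value stands for 4.96 reads per kilobase, and the KO2 and WT2 values for 17.4 and 31.0. Psmb9 thus rests on few reads, and whether it differed was not tested. Psmb9 and Tap1, whose starts face each other, had medians of 0.0826 and 2.37 RPKM over the 4 libraries.

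Each inducible subunit takes the place of a constitutive one, so the transcripts of each such pair are given as a ratio within a library. Psmb8 amounted to 1.03% and 1.63% of Psmb5 in KO1 and KO2, against 0.326% and 1.19% in WT1 and WT2. Psmb10 amounted to 2.90% and 4.12% of Psmb7 in KO1 and KO2, against 2.93% and 2.47% in WT1 and WT2. Psmb9 reached 1.09% of Psmb6 in KO2, against 0.321% and 1.55% in WT1 and WT2. The constitutive subunits thus exceeded their inducible counterparts by far in every library. On the log2(RPKM + 0.5) scale the KO minus WT differences of these ratios were 0.56 for Psmb8, 0.27 for Psmb10 and -0.061 for Psmb9, with exact permutation p-values (two-sided, 2 libraries per genotype) of 0.667, 0.333 and 1.00. The Psmb8 difference rested on single libraries, since it was 0.00901 without WT1 and 1.11 without WT2.

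**Figure D4:**
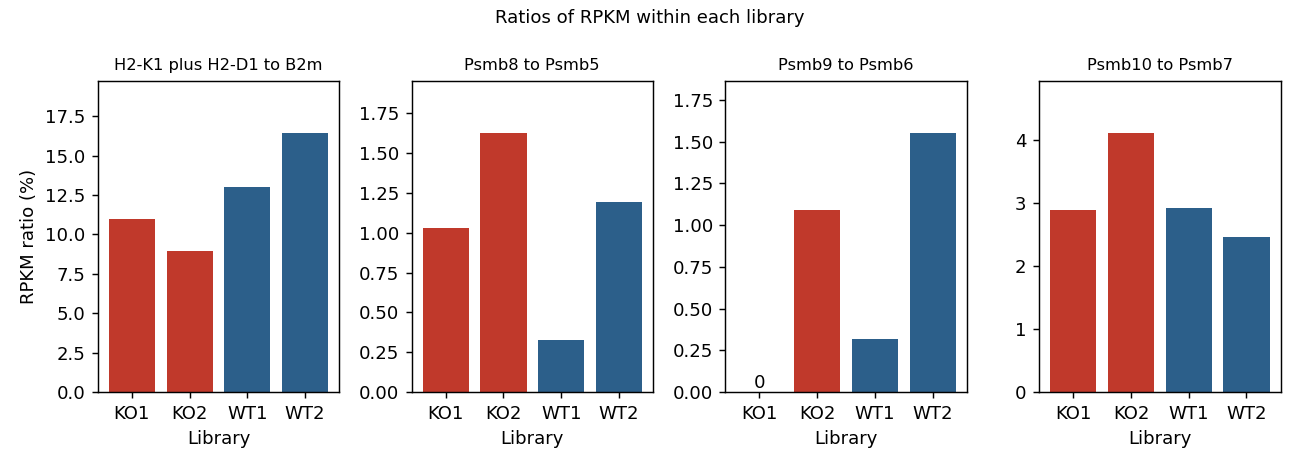
RPKM of inducible proteasome subunits as a percentage of their constitutive counterparts, and of H2-K1 plus H2-D1 as a percentage of B2m, in each library (KO red, WT blue, bars from 0, 1 value per library and therefore no error bars). The heavy chain to B2m ratio is 10.98% and 8.97% in the KO libraries, below the 12.99% and 16.4% of the WT libraries.

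Nlrc5 (chromosome 8, 96996663 to 97051173) was at 0.111 and 0.126 RPKM in KO1 and KO2, against 0.0240 and 0.111 RPKM in WT1 and WT2. WT1 was the low library, at 3.17 reads per kilobase, and the other 3 were alike. It did not pass the filter and was not tested. With Nlrc5 and Psmb9 counted as well, KO was above WT in both numbers for 4 of the 10 members and below it for 3, beside 23% and 29% of the 16266 genes.

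The members differed more between the replicate numbers than between the genotypes. Over the 8 tested genes the root mean square log2 difference was 0.32 between KO1 and WT1 and 0.40 between KO2 and WT2, whereas it was 0.60 between KO2 and KO1 and 0.89 between WT2 and WT1. Over all genes tested the same distances were 0.38 and 0.31 between genotypes and 0.87 and 0.87 between numbers, which is the same order. In the blocked fit 5 of the 8 were higher in replicate 2, against 35.8% of all genes tested, and 0 were lower (47.8% of all genes differed in either direction). Only symbols listed in all 4 libraries were used, and 0 of their rows were at 0 in both replicate 2 libraries. Genes detected in replicate 2 were thus favoured, so these shares are not an unselected background. Tap1 rose most, with a log2 difference of 1.43 (SE 0.19, adjusted p 0.000175). It was 2.85 times as high in KO2 as in KO1 and 4.23 times as high in WT2 as in WT1. Tapbp (0.84, limma adjusted p 0.0019), Tap2 (0.79, 0.00623), H2-K1 (0.72, 0.00824) and Psmb8 (0.46, 0.0370) rose as well, whereas B2m (0.30, 0.117), H2-D1 (0.10, 0.700) and Psmb10 (0.03, 0.883) missed the threshold. Of the 26 tested interferon signalling and class I transcription factors, 11 were higher in replicate 2, beside the same 35.8%, and 1 was lower. Irf7, counted among the 11, passed the filter on low values only through the replicate 2 libraries. It was at 0.775 and 0.730 RPKM in KO2 and WT2, against 0.317 and 0.149 RPKM in KO1 and WT1. Irf1, a transcription factor that acts on class I promoters, was among the 11, by 1.70 on the log2 scale (limma adjusted p 5.17e-05). Fibroblast markers differed between the numbers too: Lum, a matrix proteoglycan, was at 105 and 108 RPKM in KO2 and WT2, against 1.27 and 0.718 RPKM in KO1 and WT1. What the numbers stand for is not given in the labels, and the part of culture or processing in this difference was not tested.

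Other genes of the pathway showed 0 calls for genotype in limma's blocked fit, where 0.673% of all tested genes were called. Among the 7 tested other class I heavy chain genes, KO was above WT in both numbers for 4 and below it for 1. Over all tested genes these shares were 22.5% and 31.4%. Cd1d1, which presents lipids, was at 1.84 and 2.31 RPKM in KO1 and KO2, against 1.01 and 2.14 RPKM in WT1 and WT2. Mr1, which presents small metabolites, was at 1.69 and 3.59 RPKM in the KO libraries, against 1.24 and 2.64 RPKM in the WT libraries, or 1.37 and 1.36 times WT in the 2 numbers. H2-M3, a class Ib gene that presents formylated peptides, was 1.38 and 1.39 times WT, at 0.527 and 1.11 RPKM in KO1 and KO2, against 0.382 and 0.799 RPKM in WT1 and WT2. Their limma adjusted p-values in the blocked fit were 0.680, 0.626 and 0.735.

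Peptide loading and trimming genes were split. KO was above WT in both numbers for 4 of 16 and below it for 6, beside 22.5% and 31.4% of all tested genes. Nrd1, a peptidase, was at 5.85 and 5.58 RPKM in KO1 and KO2, against 5.29 and 3.43 RPKM in WT1 and WT2, and Sec61a1, a subunit of the channel into the endoplasmic reticulum, was at 89.1 and 84.9 RPKM in KO1 and KO2, against 101 RPKM in both WT libraries. Hspa5, the chaperone BiP, was 1.08 and 1.26 times WT. Of the 18 tested constitutive proteasome subunits and activators, KO was above WT in both numbers for 0 and below it for 3, beside the same shares. The 3 lower genes were Psmb7, Psmb3 and Psme3, at 0.813 to 0.949 of WT. The median log2 difference of the 18 was -0.21 for replicate 1 and 0.094 for replicate 2.

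Of the 26 tested interferon signalling and class I transcription factors, KO was above WT in both numbers for 6 and below it for 6. Over all tested genes the shares were 22.5% and 31.4%. Irf1 was at 1.01 and 5.24 RPKM in KO1 and KO2, against 1.61 and 5.37 RPKM in WT1 and WT2, which is 0.626 and 0.976 of WT (limma adjusted p 0.812 in the blocked fit), and Nfyc, a subunit of the factor that binds CCAAT boxes, was 0.806 and 0.797 of WT.

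Interferon-stimulated genes outside the pathway were more often above than below WT in KO. Of 24 tested, 17 were above WT in both numbers and 2 below, beside 22.5% and 31.4% of all tested genes. Of the 8 members, 3 were above and 2 below. The median log2 difference of the 24 was 0.26 for replicate 1 and 0.39 for replicate 2. The difference between these lists was not tested. Isg15, a ubiquitin-like modifier, was the single call of the list, 3.09 and 1.69 times WT (limma adjusted p 0.0369 in the blocked fit). In that fit 0.377% of all tested genes were called as raised. Gbp2, a guanylate-binding protein gene, was 3.06 and 2.09 times WT (adjusted p 0.0521 in the same limma fit). Ifi44, an interferon-induced gene, was 28.1 and 2.10 times WT (adjusted p 0.352 in that limma fit). It was at 1.68 and 1.03 RPKM in KO1 and KO2, against 0.0598 and 0.489 RPKM in WT1 and WT2. Ifi44, counted among the 17, thus passed the filter on low values only through the KO libraries, where it was high. Its place in that count therefore carries no weight.

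Markers of macrophages and blood moved with genotype and with replicate number, and macrophages carry class I and class II molecules. Of the 13 tested macrophage and blood markers, 11 stood below WT in both numbers, beside 31.4% of all tested genes. In limma's blocked fit 4 passed as lowered (C1qc, Laptm5, Fcer1g and Cd14), beside 0.296% of all tested genes. With genotype alone 0 of the 13 passed. Cd53, a leukocyte membrane protein, went the other way, at 4.08 and 2.17 RPKM in KO1 and KO2, against 0.408 and 1.80 RPKM in WT1 and WT2. The summed level of the 16 markers was 12.5 and 89.4 RPKM in KO1 and KO2, against 61.3 and 181 RPKM in WT1 and WT2. Cd68, a macrophage marker, was at 0.397 and 2.19 RPKM in KO1 and KO2, against 0.961 and 6.76 RPKM in WT1 and WT2, and Csf1r, the receptor on which macrophages depend, was at 0.373 and 0.980 RPKM in KO1 and KO2, against 0.803 and 2.35 RPKM in WT1 and WT2. Of the class II genes, Cd74, the invariant chain, reached at most 0.589 RPKM, and Ciita, the class II transactivator, at most 0.0110 RPKM. Ctss, a protease that cuts the invariant chain and is abundant in macrophages, was the highest of the list in KO2, WT1 and WT2 but not in KO1. It was at 0.163 and 1.15 RPKM in KO1 and KO2, against 0.586 and 2.06 RPKM in WT1 and WT2 (unadjusted p 0.00196 and adjusted p 0.122 in limma's blocked fit). H2-DMb1, a chain of the class II peptide exchanger, was 1.96 and 1.04 times WT. The summed level of the 9 class II genes was 1.58 and 3.17 RPKM in KO1 and KO2, against 1.61 and 4.25 RPKM in WT1 and WT2. Of 6 epithelial markers 3 were tested, and the keratins Krt19 and Krt7 passed the blocked fit as lowered. The list did not move as a whole: Krt18 was 1.09 and 0.364 times WT, and Epcam, which stayed at or below 0.151 RPKM, was 2.73 and 3.37 times WT. Krt19 was at 3.56 and 2.70 RPKM in KO1 and KO2, against 13.4 and 9.78 RPKM in WT1 and WT2, and made up most of the list's sum in WT. Of the 5 measured T, B and NK cell markers none exceeded 0.0651 RPKM in any library. The part of macrophages in the lower heavy chain values of KO and in the difference between the numbers was not tested, and fewer cells of a type cannot be told apart from less RNA per cell.

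**Figure D5:**
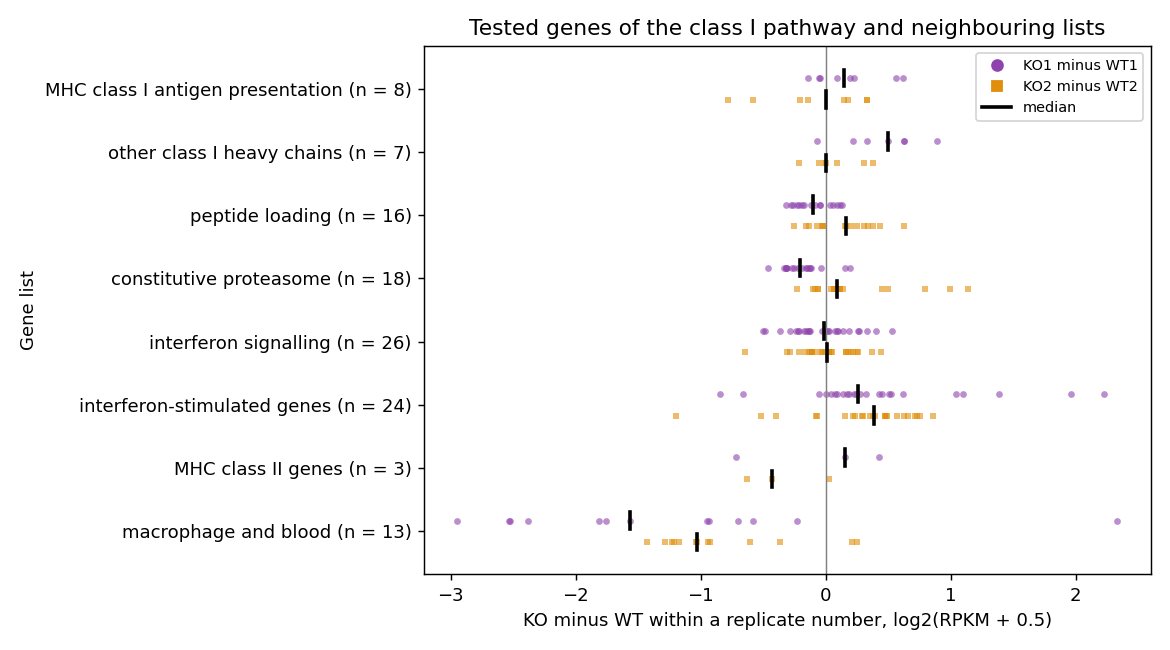
KO minus WT on the log2(RPKM + 0.5) scale for the tested genes of 8 lists, 1 symbol per gene, with purple circles for replicate 1, orange squares for replicate 2 and black bars for the medians. The class I members have medians of 0.14 and 0.0023, the interferon-stimulated genes of 0.26 and 0.39.

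The 5 genes outside all lists whose profile over the 4 libraries lay nearest to the mean profile of the tested members were Dbndd1, Auh, Bace1, Cdk10 and Ift122, at root mean square distances of 0.019 to 0.026 on the log2 scale. Auh was at 1.75 and 2.67 RPKM in KO1 and KO2, against 1.47 and 2.73 RPKM in WT1 and WT2. With 4 libraries such nearness is a description of these values only.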

How the data were processed

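KO and WT fibroblasts gave 2 RNA libraries each. DNase, RiboMinus and poly-A selection were applied to the RNA, per the labels' protocols. The authors deposited RPKM for each RefSeq transcript. For software, mm9 and Partek appear in the submitters' processing notes, and Cufflinks in the deposited readme. An aligner is not given in the sources used here.

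Rows of a symbol were summed. Genes reaching 0.5 RPKM in 2 or more libraries were tested with limma 3.58.1 (trend and robust variance, R 4.3.3) on log2(RPKM + 0.5), two-sided, with Benjamini-Hochberg adjustment over 11147 genes and a threshold of 0.05. The fits were tested on simulated data. The alternatives were a block for replicate number, pseudocounts of 0.1 and 1, no filter, the highest transcript row, 2 scalings and leaving out each library. Depth was read from olfactory receptor loci where RPKM times length gave whole reads within 0.02 (at least 97.5% of loci).

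The members, the lists and the tests were chosen with earlier results of these data known. All members are named, with the 3 genes of each pathway list with the largest change on the same side in both numbers among those past the filter, any called gene, fixed markers and the 5 nearest profiles. One gene that this rule names is not reported here. In the class II list 3 genes were tested, of which Ctss was lower and H2-DMb1 higher in KO in both numbers. The dendritic, endothelial and epithelial marker lists had 1, 2 and 3 tested genes, of which 0, 0 and 2 were called in the blocked fit.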

Additional observations from a re-analysis of the deposited data

How the results depend on the processing

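With genotype alone, limma called 0 genes and 0 members in all alternatives run, including the fits that left out 1 library (0 to 0). The replicate block called 75 genes, 40 with a pseudocount of 0.1, 59 with a pseudocount of 1, 0 with no filter, 3 with the transcript row of the highest mean, 148 (81 raised, 67 lowered) with median-ratio scaling and 185 (97 raised, 88 lowered) with quantile normalization, and 0 members in each of these. Pairing by number is not stated in the labels. Deviations from the group means of same-numbered libraries had a correlation of 0.875 across genes, which are not independent replicates. H2-D1, B2m and Psmb8 kept their direction under every alternative run, but their size depended on single libraries. With 1 library left out, the log2 difference ranged from -0.649 (without WT1) to -0.176 (without WT2) for H2-D1, 0.00646 (without WT1) to 0.335 (without WT2) for B2m and 0.163 (without WT1) to 0.735 (without WT2) for Psmb8. It ranged from -0.809 to 0.18 for H2-K1 (reversed without WT2), -0.811 to 0.836 for Tap1 (without WT1 or KO2, -0.594), -0.106 to 0.908 for Tap2 (without WT1), -0.505 to 0.454 for Tapbp (without WT2 or KO1, 0.339) and -0.0443 to 0.226 for Psmb10 (without KO2 or WT2, -0.00967). Tap1 also reversed with a pseudocount of 1 (-0.00397), and Tapbp with median-ratio scaling (0.00855) and quantile normalization (0.00158), with and without the block. With the transcript row of the highest mean in place of the sum, Tap1 kept its sign but was 0.33. In that setting 5 members were higher in KO within both replicate numbers, against 4 with summed rows. The ratio of Psmb9 to Psmb6 ranged from -0.25 to 0.128 and reversed without KO1 (0.0373) and WT2, that of Psmb8 to Psmb5 from 0.00901 (without WT1) to 1.11 (without WT2) and that of Psmb10 to Psmb7 from 0.143 to 0.394. Psmb8 itself was 0.766 with a pseudocount of 0.1 and 0.3 with a pseudocount of 1. The cause was not tested. When 1 library is left out, the lone sample is assumed to vary like the others, and the difference between replicate numbers enters the genotype difference. Psmb9 and Nlrc5, near 0.1 RPKM, rest on few reads.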
